A study of Homo sapiens with 6 samples.

Results

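RPLP0, RPLP1 and RPLP2 encode the proteins of the ribosomal stalk, a flexible arm of the large ribosomal subunit. They were found by their Ensembl IDs (ENSG00000089157.15, ENSG00000137818.11 and ENSG00000177600.8), and the 3 genes were among 60554 IDs in the count tables, of which 24232 had a count in any library and 10788 were tested. The RNA came from HCT116, a human colorectal carcinoma cell line, and from the 40S part of a sucrose gradient, where small ribosomal subunits outside assembled ribosomes sediment. The series title calls this the free 40S fraction and the sample descriptions a 40S monosome fraction. RNA immunoprecipitation followed by sequencing was done with an anti-LARP1 antibody (LARP1 RIP, n = 2) and with IgG of normal rabbit serum (IgG RIP, n = 2), and the unselected RNA of the fraction was sequenced too (Input, n = 2). No genotype, drug or time differs between these groups, and all 6 libraries share the cell line and the fraction. The labels call the libraries of a group biological replicates without naming separate cultures; if they shared a culture, the p-values below would cover technical spread alone.

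RPLP0 protein anchors the stalk to ribosomal RNA, and the small acidic proteins encoded by RPLP1 and RPLP2 bind it as heterodimers. The shared C-terminal tails of the stalk proteins recruit the elongation factors and other GTPases of translation and stimulate GTP hydrolysis. The mRNAs of ribosomal proteins belong to the TOP class, which begins with a C at the cap followed by an unbroken stretch of pyrimidines, and LARP1 is an RNA-binding protein known to bind the cap and this stretch. What was measured here is the mRNA of the stalk genes, not the proteins.

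The start of each gene is shown because the TOP stretch lies there. The windows hold 10 bases before and 20 bases from the RefSeq start, on the gene's own strand of GRCh38.p14, and capitals mark the unbroken run of C or T that opens the transcript.
RPLP0: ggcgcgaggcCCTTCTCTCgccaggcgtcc
RPLP1: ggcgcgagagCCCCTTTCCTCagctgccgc
RPLP2: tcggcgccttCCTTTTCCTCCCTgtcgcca
The RPLP0 window is chr12:120201092-120201121 on the minus strand, the RPLP1 window chr15:69452808-69452837 on the plus strand, and the RPLP2 window chr11:809957-809986 on the plus strand. All 3 genes began with C, and the run was 9 bases long in RPLP0, 11 in RPLP1 and 13 in RPLP2. A start C within a run of at least 5 pyrimidines (the C and 4 more) was found in 4.54% of 22197 protein-coding promoters of the same RefSeq table and in 4.07% of all 35114. For runs of at least 9, 11 and 13 bases the shares of protein-coding promoters were 1.29%, 0.73% and 0.365%. Among other large subunit ribosomal protein genes, 22 of the 35 with a promoter in the table had a start C in a run of at least 5, and so did 19 of 26 small subunit genes and 1 of 16 abundant mRNAs that are not in the TOP class. Runs of at least 9 bases were found in 7 of those 35 large and 11 of those 26 small subunit genes, of at least 11 bases in 4 and 4, and of at least 13 bases in 2 and 1. A run in the reference sequence describes these letters at an annotated start and does not show which start HCT116 cells use.

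**Figure D1:**
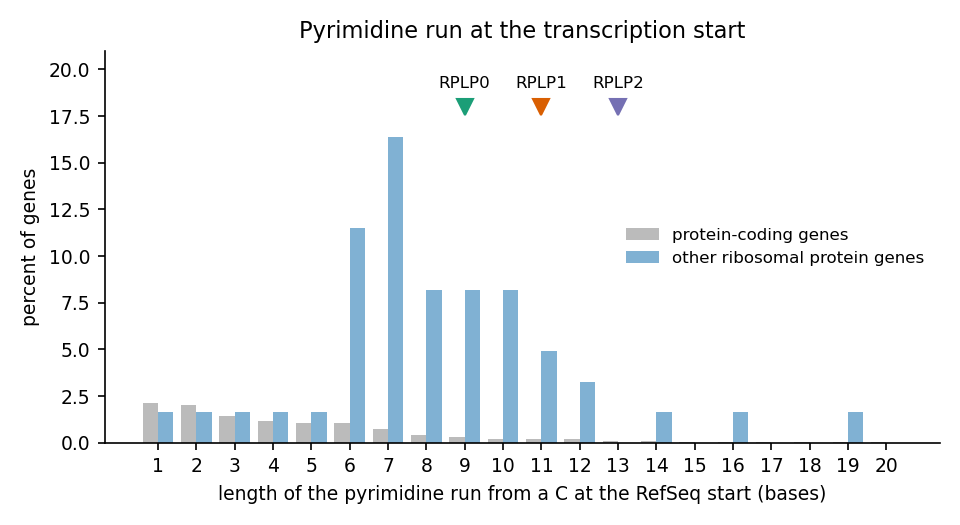
Percent of genes (y axis) by the length in bases of the pyrimidine run that starts with C at the RefSeq start (x axis), for all protein-coding genes (grey) and for 61 other ribosomal protein genes (blue), with triangles at the stalk genes. RPLP0, RPLP1 and RPLP2 stand at 9, 11 and 13 bases; genes with no start C and runs over 20 bases are not drawn.

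By RefSeq coordinates RPLP0 lies at chr12:120196699-120201111, RPLP1 at chr15:69452818-69456205 and RPLP2 at chr11:809967-812876. The span of RPLP2 holds the small nucleolar RNA gene SNORA52, and the end of RPLP1 overlaps the long noncoding RNA gene LINC02896. RefSeq lists 12 pseudogenes named for RPLP0, 13 for RPLP1 and 5 for RPLP2. Reads from such copies and from overlapping genes could have been split or shared in the authors' counting, which makes the counts below uncertain by an amount that was not tested.

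Library totals ran from 4135463 to 8069554 counts. The 2 genes with the most counts took 88.7% and 87.9% of Input replicates 1 and 2. In the same order they took 70.9% and 71.5% of the IgG RIP and 26.6% and 21.3% of the LARP1 RIP. The counts left for other genes were thus lowest in Input (752862 and 778680). Levels are given as CPM, counts scaled to a common library size, with TMM factors that set the bulk of genes equal between libraries. They are relative to the other RNAs of a library and do not give the amount of RNA that each immunoprecipitation recovered. In bulk RNA, fewer cells and less RNA per cell cannot be told apart either. The tables do not pair IDs with symbols, so markers of colon epithelium and of other cell types were not examined.

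All 3 stalk mRNAs were far more abundant in the LARP1 RIP than in either control. Together they made up 0.137% ± 0.0051 of the counts in Input, 0.238% ± 0.048 in the IgG RIP and 3.45% ± 0.99 in the LARP1 RIP (SD, n = 2 each). Outside the 2 genes with the most counts their share was 1.17% ± 0.098 in Input, 0.828% ± 0.18 in the IgG RIP and 4.50% ± 1.1 in the LARP1 RIP (SD, n = 2 each). The LARP1 RIP was therefore highest by either denominator, while the order of the IgG RIP and Input depended on it.

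RPLP0, the anchor of the stalk, had 47407 and 55724 counts in LARP1 RIP replicates 1 and 2, 8572 and 12571 in the IgG RIP, and 3981 and 4026 in Input. As CPM these were 4973 and 10370 in the LARP1 RIP, 792 and 1247 in the IgG RIP, and 1335 and 1250 in Input. Both LARP1 libraries lay above all 4 control libraries. Of all tested genes, 27.3% had both LARP1 libraries above both IgG libraries and 28.8% above both Input libraries. The share above all 4 was not counted. The lower LARP1 library was 3.99 times the higher IgG library and 3.72 times the higher Input library.

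RPLP1, which encodes an acidic stalk protein, had 64628 and 78688 counts in the LARP1 RIP, 4753 and 6860 in the IgG RIP, and 3796 and 3198 in Input. Its levels were 6780 and 14640 CPM in the LARP1 RIP, 439 and 681 CPM in the IgG RIP, and 1273 and 993 CPM in Input. The lower LARP1 library was 9.96 times the higher IgG library and 5.32 times the higher Input library. Both IgG libraries were below both Input libraries, as they were for 19.3% of all tested genes.

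RPLP2, whose product pairs with that of RPLP1, had 30986 and 37026 counts in the LARP1 RIP, 1694 and 2566 in the IgG RIP, and 1553 and 1349 in Input. Its levels were 3251 and 6888 CPM in the LARP1 RIP, 157 and 255 CPM in the IgG RIP, and 521 and 419 CPM in Input. Again no LARP1 library overlapped a control library, with the lower LARP1 library 12.8 times the higher IgG library and 6.24 times the higher Input library. Libraries without overlap in this direction were common over all tested genes, at 27.3% for the LARP1 RIP over the IgG RIP and 28.8% for the LARP1 RIP over Input.

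**Figure D2:**
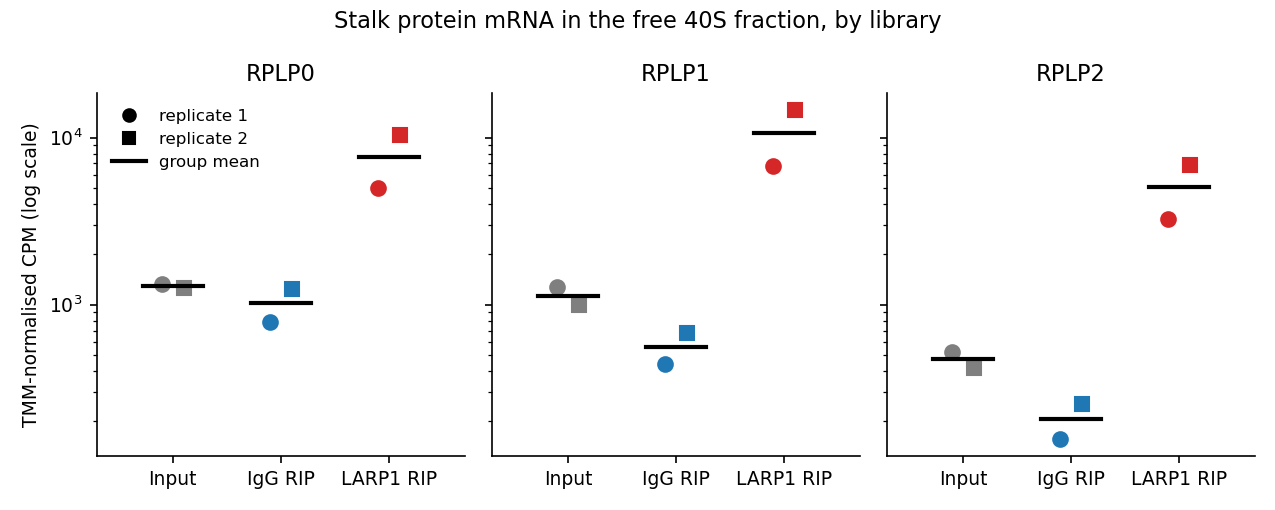
TMM-normalised CPM (y axis, log scale) of RPLP0, RPLP1 and RPLP2 in the 2 Input, 2 IgG RIP and 2 LARP1 RIP libraries; circles are replicate 1, squares replicate 2 and bars group means. Every LARP1 RIP point lies above every control point, and replicate 2 is the higher point in both immunoprecipitates and the lower one in Input.

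In the immunoprecipitates, the replicates differed in CPM with TMM factors by a factor that was nearly the same for the 3 genes. In the LARP1 RIP, replicate 2 exceeded replicate 1 by 2.08 times for RPLP0, 2.16 times for RPLP1 and 2.12 times for RPLP2. In the IgG RIP the higher replicate, again replicate 2, exceeded the other by 1.57, 1.55 and 1.63 times in the same order. In Input, replicate 1 was the higher, by 1.07 times for RPLP0 and by 1.28 and 1.24 times for RPLP1 and RPLP2. Counting error was small beside this spread, between 0.357% of the count (RPLP1 in LARP1 RIP replicate 2) and 2.72% (RPLP2 in Input replicate 2), and covers counting only.

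Against the IgG RIP, which measures what the control serum recovers, all 3 stalk mRNAs were higher in the LARP1 RIP, where 8.54% of the 10788 tested genes were called higher. RPLP2 had the largest difference of the 3, a log2 fold change of 4.62 ± 0.52 (SE; 24.7-fold; edgeR adjusted p = 0.000179). RPLP1 followed at 4.26 ± 0.51 (19.1-fold; edgeR adjusted p = 0.000212), and RPLP0 at 2.91 ± 0.47 (7.52-fold; edgeR adjusted p = 0.00166). The median of all tested genes was -0.065. Of the 921 genes called higher, 27 had a larger log2 fold change than RPLP2, 71 than RPLP1 and 291 than RPLP0. All 6 libraries entered the edgeR quasi-likelihood fit, and p-values were adjusted by Benjamini-Hochberg over all tested genes. With only the 4 libraries compared, the edgeR adjusted p was larger, 0.00687, 0.00763 and 0.0225 for RPLP2, RPLP1 and RPLP0. Total counts without the 2 most abundant genes as the scale lowered the log2 fold changes to 3.35, 2.98 and 1.64 for RPLP2, RPLP1 and RPLP0, with the median of all genes at -1.24. Without LARP1 RIP replicate 2 they were 3.99, 3.60 and 2.29, and all 3 genes were still called by edgeR and DESeq2 without any single library, in fits that take the spread of a group left with 1 library from the other groups.

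Against Input, the unselected RNA of the fraction, the 3 mRNAs were again higher in the LARP1 RIP, where 4.63% of tested genes were called higher. The order was the same: the log2 fold change was 3.43 ± 0.49 for RPLP2 (SE; 10.8-fold; edgeR adjusted p = 0.00112), 3.24 ± 0.49 for RPLP1 (9.45-fold; edgeR adjusted p = 0.00148) and 2.57 ± 0.47 for RPLP0 (5.93-fold; edgeR adjusted p = 0.0056). Of the 499 genes called higher than Input, 101, 135 and 237 had larger log2 fold changes than RPLP2, RPLP1 and RPLP0. The stalk genes were thus among the 471 genes (4.37%) called higher than both controls, comparisons that share the LARP1 RIP libraries. With only the 4 libraries compared, the edgeR adjusted p was smaller here, 2.48e-06, 5.21e-06 and 0.000112 for RPLP2, RPLP1 and RPLP0. The p-values thus depend on which groups share the estimate of spread. Without Input replicate 1 the log2 fold changes were 3.60, 3.43 and 2.62 for RPLP2, RPLP1 and RPLP0 and none passed by edgeR (adjusted p = 0.0682, 0.0707 and 0.123), and without Input replicate 2 they were 3.29, 3.08 and 2.53 (edgeR adjusted p = 0.0997, 0.126 and 0.201), fits in which edgeR called 0 genes higher and in which DESeq2 still called all 3. Scaling by total counts raised the log2 fold changes to 5.07, 4.88 and 4.20, with the median of all genes at 1.75, and leaving the 2 most abundant genes out of the totals lowered them to 2.36, 2.17 and 1.50, with that median at -0.92. Without LARP1 RIP replicate 2 they were 2.81, 2.60 and 1.96, and all 3 passed.

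**Figure D3:**
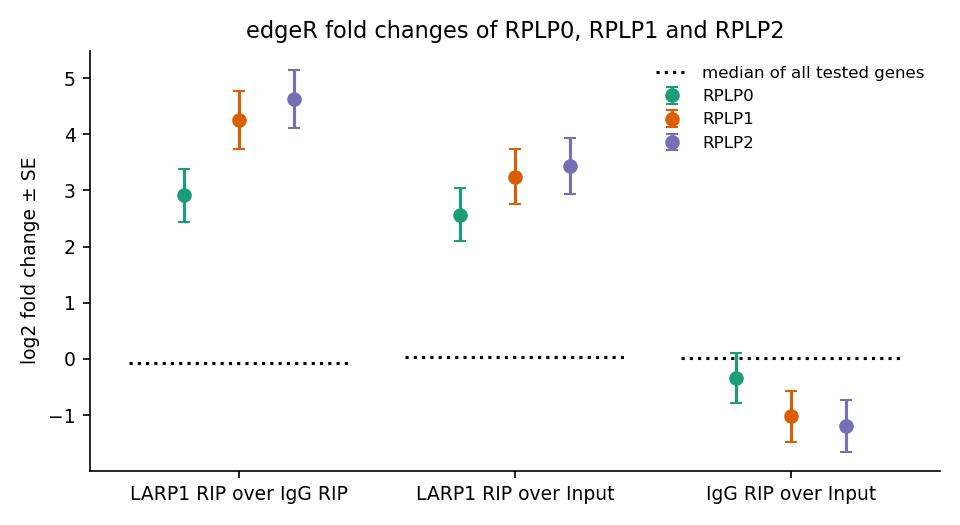
edgeR log2 fold changes (y axis) of the 3 stalk genes in the 3 comparisons (x axis), with bars of 1 SE and a dotted line at the median of all 10788 tested genes. RPLP0 has the smallest and RPLP2 the largest log2 fold change of the LARP1 RIP over either control, and in the IgG RIP over Input the order is turned.

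The IgG RIP did not differ from Input past the threshold for any of the 3 genes. The log2 fold changes were -0.34 ± 0.44 for RPLP0, -1.02 ± 0.45 for RPLP1 and -1.19 ± 0.46 for RPLP2 (SE; edgeR adjusted p = 0.915, 0.737 and 0.734). By edgeR 0 of 10788 genes passed in this comparison, a percent called of 0, with 725 at an unadjusted p under 0.05 and 19 higher and 19 lower by DESeq2. The IgG libraries lay below the Input libraries in CPM for all 3 genes, for RPLP0 by a margin of 1247 against 1250 CPM, and 19.3% of tested genes were without overlap in that direction. The direction depended on the scale: with total counts the log2 fold changes turned to 1.15, 0.49 and 0.31 for RPLP0, RPLP1 and RPLP2, while the median of all genes rose to 1.51.

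**Figure D4:**
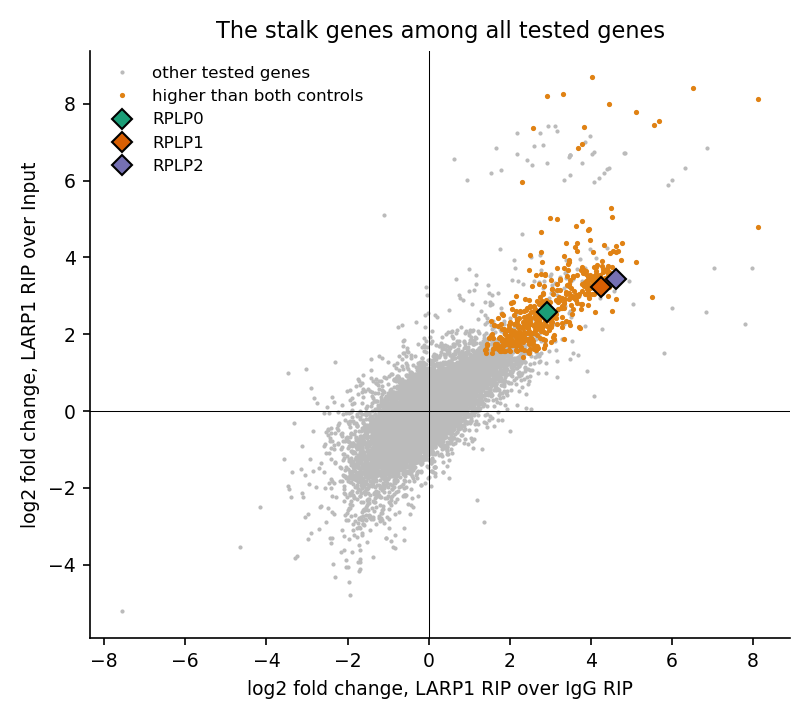
log2 fold change of the LARP1 RIP over the IgG RIP (x axis) and over Input (y axis) for 10788 tested genes; orange points are the 471 genes called higher than both controls, and diamonds are the stalk genes. RPLP1 (4.26 and 3.24) and RPLP2 (4.62 and 3.43) lie close together and RPLP0 (2.91 and 2.57) lies lower on both axes, which share the LARP1 RIP libraries.

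The count ratio of any pair of stalk genes within a library does not depend on how libraries are scaled. By these ratios the proportions of the 3 mRNAs in the counts differed between the groups, a description with no call. Gene lengths were not used, so a ratio is read only as a change between libraries. RPLP1 had 1.36 and 1.41 counts per RPLP0 count in the LARP1 RIP, 0.954 and 0.794 in Input, and 0.555 and 0.546 in the IgG RIP. The groups did not overlap, and Input lay between the immunoprecipitates. Of the other 10787 tested genes, 58 (0.538%), RPLP1 and RPLP2 included, had a count ratio to RPLP0 in this order of groups without overlap. Few genes could, as 97.09% of tested genes had a lower log2 fold change over the IgG RIP than RPLP0. On the log2 scale the mean ratio was 0.47 ± 0.036 in the LARP1 RIP, -0.20 ± 0.19 in Input and -0.86 ± 0.016 in the IgG RIP (SD, n = 2 each). The ratio was thus 2.52 times higher in the LARP1 RIP than in the IgG RIP and 1.59 times higher than in Input.

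RPLP2 behaved alike relative to RPLP0, with 0.654 and 0.665 counts per RPLP0 count in the LARP1 RIP, 0.390 and 0.335 in Input, and 0.198 and 0.204 in the IgG RIP. This ratio was 3.28 times higher in the LARP1 RIP than in the IgG RIP and 1.82 times higher than in Input, again without overlap. The log2 means were -0.60 ± 0.017, -1.47 ± 0.16 and -2.32 ± 0.033 in the LARP1 RIP, Input and the IgG RIP (SD, n = 2 each).

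The partners RPLP1 and RPLP2 stayed closer to each other. RPLP2 had 0.480 and 0.471 counts per RPLP1 count in the LARP1 RIP, 0.409 and 0.422 in Input, and 0.356 and 0.374 in the IgG RIP. Here the LARP1 RIP exceeded the IgG RIP by 1.30 times and Input by 1.14 times, in the same order of groups and without overlap. Relative to RPLP1, 1 of 10787 genes, RPLP2 itself, showed this order. Few genes could, as 99.33% of tested genes had a lower log2 fold change over the IgG RIP than RPLP1. The count is thus limited by the rank of RPLP1, and also by the demand that Input lie between the immunoprecipitates without overlap. The log2 means were -1.07 ± 0.019 in the LARP1 RIP, -1.27 ± 0.031 in Input and -1.45 ± 0.049 in the IgG RIP (SD, n = 2 each). The small differences between these means exceeded the spread between replicates. With 2 libraries that spread is poorly known: counting alone gave an SE of 0.0435 and 0.0468 in Input replicates 1 and 2, above their SD. For each of the 9 comparisons of a ratio between groups the two-sided exact permutation p was 0.33, the smallest that 2 libraries against 2 can give, so this test could not pass a threshold of 0.05 for any ratio. Without any single library, the change of ratio between RPLP0 and its partners ran from 1.31 to 1.36 on the log2 scale for RPLP1 and from 1.69 to 1.74 for RPLP2 in the LARP1 RIP over the IgG RIP, and from 0.54 to 0.80 and 0.76 to 0.98 over Input.

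**Figure D5:**
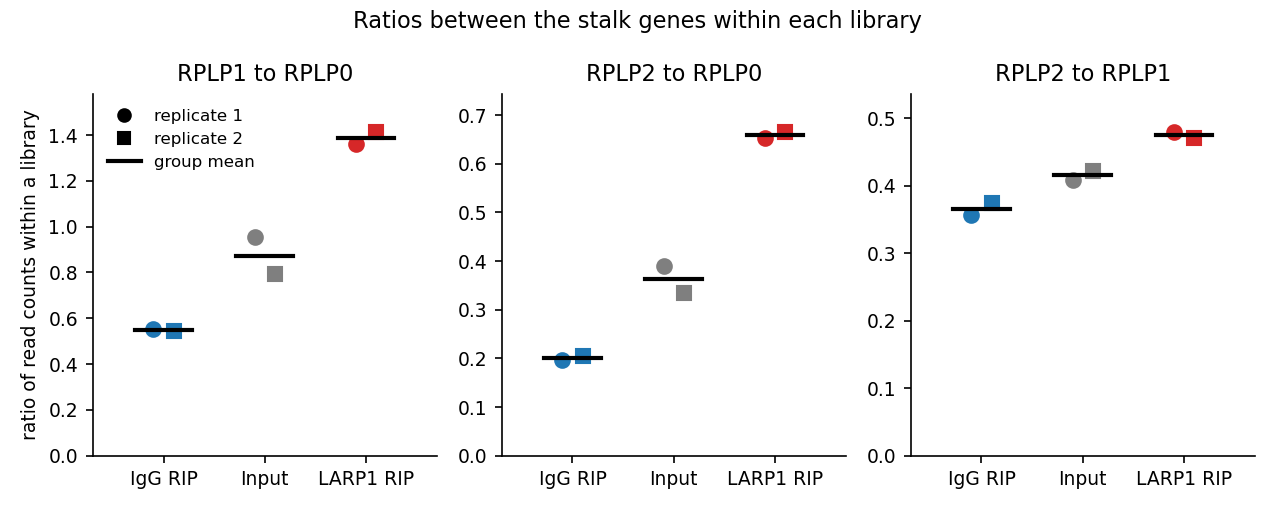
Ratio of read counts (y axis, from 0) between stalk genes within each of the 6 libraries, by group; circles are replicate 1, squares replicate 2 and bars group means. In each panel the IgG RIP is lowest and the LARP1 RIP highest, and the panel of RPLP2 to RPLP1 spans the narrowest range, 0.356 to 0.480.

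The order of the 3 genes by log2 fold change in the LARP1 RIP (RPLP0, RPLP1, RPLP2) was also their order by the length of the pyrimidine run printed above. In the IgG RIP over Input, where none of the 3 was called, the order by log2 fold change was the reverse (-0.34, -1.02 and -1.19). With 3 genes these orders are a description, and the part of the run in the differences was not tested.

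Likeness of pattern was measured as the root mean square (RMS) difference between log2 CPM values over the 6 libraries, each gene centred on its own mean, among genes that averaged 10 CPM or more. RPLP1 and RPLP2 were among the closest genes to each other, with an RMS difference of 0.156 on the log2 scale, which put RPLP2 at rank 12 of 3064 for RPLP1 and RPLP1 at rank 9 for RPLP2. RPLP0 was less close to both, at 0.55 from RPLP1 and 0.702 from RPLP2, where RPLP1 and RPLP2 took ranks 275 and 434 for RPLP0, and RPLP0 took rank 121 for RPLP1 and 130 for RPLP2. The median RMS difference of all compared genes was 1.30 from RPLP0, 1.8 from RPLP1 and 1.94 from RPLP2. The closest gene to RPLP2 was ENSG00000171858.17 (RMS difference 0.0609), at 1893 and 3800 CPM in the LARP1 RIP, 90.6 and 150 CPM in the IgG RIP and 321 and 263 CPM in Input. The closest to RPLP0 was ENSG00000189171.14 (RMS difference 0.113), a gene at low levels of 17.7 and 37.0 CPM in the LARP1 RIP, 2.77 and 4.66 CPM in the IgG RIP and 5.70 and 4.97 CPM in Input. The gene at rank 2 (RMS difference 0.122) was abundant, at 3877 and 9053 CPM in the LARP1 RIP, 690 and 1094 CPM in the IgG RIP and 1327 and 1243 CPM in Input. At rank 3 (RMS difference 0.122) stood another gene at low levels, 15.0 and 35.2 CPM in the LARP1 RIP. Its controls were at 2.77 and 3.97 CPM in the IgG RIP and 3.69 and 4.04 CPM in Input. Both low genes were under 10 CPM in every control library and met the minimum mean only through the LARP1 RIP. Genes this low in the controls enter only if high in the LARP1 RIP, so their likeness to RPLP0 is partly built in. The closest to RPLP1 had an RMS difference of 0.105 and log2 fold changes of 4.21 over the IgG RIP and 3.17 over Input. All genes of a library share its depth and scaling factor, so closeness of pattern is a description with no test.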

How the data were processed

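The 6 libraries (2 LARP1 RIP, 2 IgG RIP, 2 Input) were prepared, per the labels' protocols, with a stranded mRNA kit whose poly(A) step was left out. The deposited values are the authors' raw read counts per Ensembl gene ID, with no normalization. Per the submitters' processing notes, the build was GRCh38 and the tools included TopHat2 2.1.1 with Bowtie2, and featureCounts of Subread 1.20.6, after CASAVA 1.8. What is not given in the sources used here is the strand setting, the annotation release and the handling of multi-mapped reads.

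Counts were filtered with filterByExpr (minimum count 10), scaled by TMM and fitted with edgeR 4.0.16 in R 4.3.3 by a quasi-likelihood model of group over all 6 libraries, with 3 residual degrees of freedom and a prior count of 0.125. Genes were called at a Benjamini-Hochberg adjusted p under 0.05. The SE is the log2 fold change divided by the square root of F. The fit shares its spread over groups whose replicates differed unequally. Over genes, the chi-square between replicates per degree of freedom was 33.5 in the IgG RIP, 5.70 in Input and 32.5 in the LARP1 RIP. This measure also grows with the counts, which were lowest in Input outside the 2 most abundant genes. Alternatives were DESeq2 1.42.0, other scalings and filters, 4-library fits, a replicate block and leaving out each library. The 3 genes, and the gene lists, were chosen with earlier results of these data known. Symbols of the 3 genes came with their IDs; the RefSeq table (GRCh38.p14) matched 0 of the files' IDs, so the lists were used only for the start sequences. For each stalk gene the naming rule picks the 3 genes nearest in pattern; 2 IDs are printed.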

Additional observations from a re-analysis of the deposited data

How the results depend on the processing

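The 3 stalk genes kept their direction over both controls under every alternative run, and lost the call only in the edgeR fits without an Input library, given above. Over Input the log2 fold changes without 1 library, by edgeR and DESeq2, ran from 1.96 to 3.01 for RPLP0, 2.60 to 3.70 for RPLP1 and 2.81 to 3.88 for RPLP2. With total counts, those of the IgG RIP over Input turned to 1.15, 0.49 and 0.31 (edgeR adjusted p = 0.0116, 0.125 and 0.33), so RPLP0 then passed as higher, beside a median of all genes of 1.51.

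Counts of all called genes moved more (higher, lower). For LARP1 RIP over IgG RIP (921, 247), total counts gave 75 lower, total counts without the 2 most abundant genes 356 and 3992, the 4-library fit 80 lower, and fits without 1 library 411 to 977 and 59 to 307 (by edgeR, 578 higher without LARP1 RIP replicate 2 and 579 without IgG RIP replicate 1). For LARP1 RIP over Input (499, 164), total counts gave 6566 and 27, total counts without the 2 genes 184 and 1122, no filter 821 higher, and fits without 1 library 0 to 723 and 0 to 279. For IgG RIP over Input (0, 0), DESeq2 gave 19 and 19, total counts 5816 and 6, total counts without the 2 genes 2 lower, no filter 56 and 17, the 4-library fit 5 and 8, and fits without 1 library 0 to 41 and 0 to 22. Apart from their construction (fewer libraries, another scale or filter) the cause was not tested.

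The labels share replicate numbers between groups without a batch behind them. Over genes, the deviations of equal numbers from their group means correlated at 0.519 between the immunoprecipitates. The correlations were 0.271 between Input and IgG and 0.134 between Input and LARP1. No label states a pairing, and whether replicates of equal number were paired was not tested. With the replicate block, log2 fold changes over IgG were 2.88, 4.22 and 4.59 for RPLP0, RPLP1 and RPLP2, and 1526 and 909 genes were called there, 1083 and 551 over Input, and 39 and 35 for the IgG RIP; the block changed no call of the stalk genes. Outside the 2 most abundant genes, Input had the fewest counts.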
